A study of Mus musculus with 6 samples.

Results

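Glycogen synthase kinase 3 exists in the mouse as a pair of closely related kinases, alpha (gene Gsk3a) and beta (Gsk3b), and this account follows both of them with the genes of the beta-catenin pathway they act in. The 10 genes are Gsk3b, Gsk3a, Ctnnb1, Axin1, Axin2, Apc, Csnk1a1, Tcf7l2, Lef1 and Gys1, out of 56747 gene rows in the table, and all 10 passed the filter on low counts that left 17557 genes for testing. Gsk3b was selected on its result in the same comparison, where it was among the 2 genes that passed an adjusted p of 0.05 (0.0114% of the genes tested), and the other 9 were chosen by name as its partners with those results known. Their values are therefore given below as a description, with no test. Each of the 10 symbols stood on 1 row of the table.

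The RNA came from whole kidneys of male wild-type C57BL/6J mice, an inbred laboratory strain, after ischemia-reperfusion, in which the renal blood supply is stopped and then restored. The tacrolimus group had 1 mg/kg/day of oral tacrolimus, an immunosuppressant that inhibits the phosphatase calcineurin, for 1 day, and then 30 min of occlusion of both renal arteries and 24 h of reperfusion. The saline group had 0.9% saline by mouth over the same time, and its ischemia of 30 min is called partial and bilateral before the same reperfusion, so that treatment and surgery cannot be told apart. There are 3 libraries per group, from groups of 6 animals, and no kidney without ischemia. All libraries are labelled as a single batch, and whether each stands for its own animal is not said, so the errors measure only how far these libraries differ. The study's title names zafirlukast, while the labels of these libraries name tacrolimus.

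Gsk3 was first known as the kinase that phosphorylates and switches off glycogen synthase, and is itself switched off when Akt, downstream of insulin, phosphorylates a serine near its amino end. In the Wnt pathway it sits with the scaffolds axin and Apc and with casein kinase 1 alpha in the destruction complex, which phosphorylates beta-catenin and so marks it for ubiquitination and breakdown. When Wnt ligands reach Frizzled and Lrp5 or Lrp6 receptors the complex is inhibited, and beta-catenin accumulates and works with TCF and LEF factors on target genes. In the kidney, beta-catenin signalling is known from nephron formation, from repair of injured tubules and from fibrosis. Most of this control acts on proteins, which RNA-seq does not measure.

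The coding stretches below show the sites at which this control is exerted, in the messages that the results turn on. They come from the GENCODE M21 transcripts and are written 5′ to 3′ on the coding strand. In beta-catenin the capitals mark codon 45, phosphorylated first by casein kinase 1 alpha, and codons 41, 37 and 33, then phosphorylated by Gsk3, in a stretch of codons 31 to 47. In the kinases the capitals mark the inhibitory serine, codon 9 of Gsk3b in a stretch of codons 4 to 15 and codon 21 of Gsk3a in a stretch of codons 16 to 27.
Ctnnb1: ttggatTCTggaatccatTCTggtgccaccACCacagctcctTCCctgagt
Gsk3b: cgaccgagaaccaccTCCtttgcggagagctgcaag
Gsk3a: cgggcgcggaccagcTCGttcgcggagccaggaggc
The open reading frames, the longest among the transcripts of each gene, have 433 codons in Gsk3b and 490 in Gsk3a before the stop. Which transcripts of each gene these libraries hold was not examined. Although the kinases are alike as proteins, no run of 50 bases is shared between their transcripts on either strand, so a read of that length cannot come from both messages.

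Before the values, the libraries themselves differ in a way that touches them. Totals ran from 38443534 to 44476844 counts. Levels are given as CPM, the count divided by the TMM-scaled library total and multiplied by 1e6, or as the deposited FPKM, which also allows for length. The length that the FPKM values imply is not the gene length listed in the table: the listed length was 0.389 times the implied one for Csnk1a1, 0.844 times for Gsk3b and 0.986 times for Axin1. Saline replicate 1 lay nearer to the tacrolimus libraries than to the other saline libraries: its root-mean-square difference in log2 CPM was 0.588 to the nearest tacrolimus library and 0.863 to the nearest saline one. The summed level of 14 tubular injury markers, Havcr1 and Lcn2 among them, was 2881, 3783 and 8107.5 CPM in tacrolimus replicates 1 to 3 and 8234, 32974 and 34215 CPM in saline replicates 1 to 3. Proximal tubule markers, which check that this is kidney, summed to between 15742 and 17836 CPM in tacrolimus libraries and between 7410.5 and 13227 CPM in saline libraries. Leukocyte markers summed to between 101 and 109 CPM in tacrolimus libraries and between 88.4 and 120 CPM in saline libraries, but their members differed in direction. Of 10 tested, 5 had an unadjusted p under 0.05, all lower (Cd68, S100a8, S100a9, Cxcr2 and Mmp9), and edgeR called 0. DESeq2 called Mmp9, Cxcr2, S100a8 and S100a9 lower, and edgeR without saline replicate 1 called 5 lower and 3 higher (Adgre1, Csf1r and Ptprc). Over all genes tested, 12.7% had an unadjusted p under 0.05. DESeq2 called 1.96% of them, and edgeR without saline replicate 1 called 14.0%. Endothelial markers summed to between 465 and 519 CPM in tacrolimus libraries and between 253 and 447 CPM in saline libraries. In whole tissue, fewer cells of a type and less RNA per cell cannot be told apart. For the 10 genes and for the medians of the pathway lists, the value without saline replicate 1 is also given below.

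Gsk3b encodes the beta kinase, and of the 10 genes it had the log2 fold change of the largest size with all libraries. Its level was 30.3, 27.8 and 32.3 CPM in tacrolimus replicates 1 to 3 and 86.1, 84.2 and 84.6 CPM in saline replicates 1 to 3. The groups did not overlap, and saline replicate 1 lay with the other saline libraries, unlike in the injury markers. In raw counts these are 1290, 1173 and 1366 in tacrolimus libraries and 3555, 3314 and 3542 in saline libraries, so sampling error is small beside the difference. The means were 30.2 ± 2.27 CPM with tacrolimus and 85.0 ± 1.00 CPM with saline (SD, n = 3 each), a log2 fold change, tacrolimus over saline, of -1.49 ± 0.11 (SE). It was -1.48 without saline replicate 1.

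**Figure D1:**
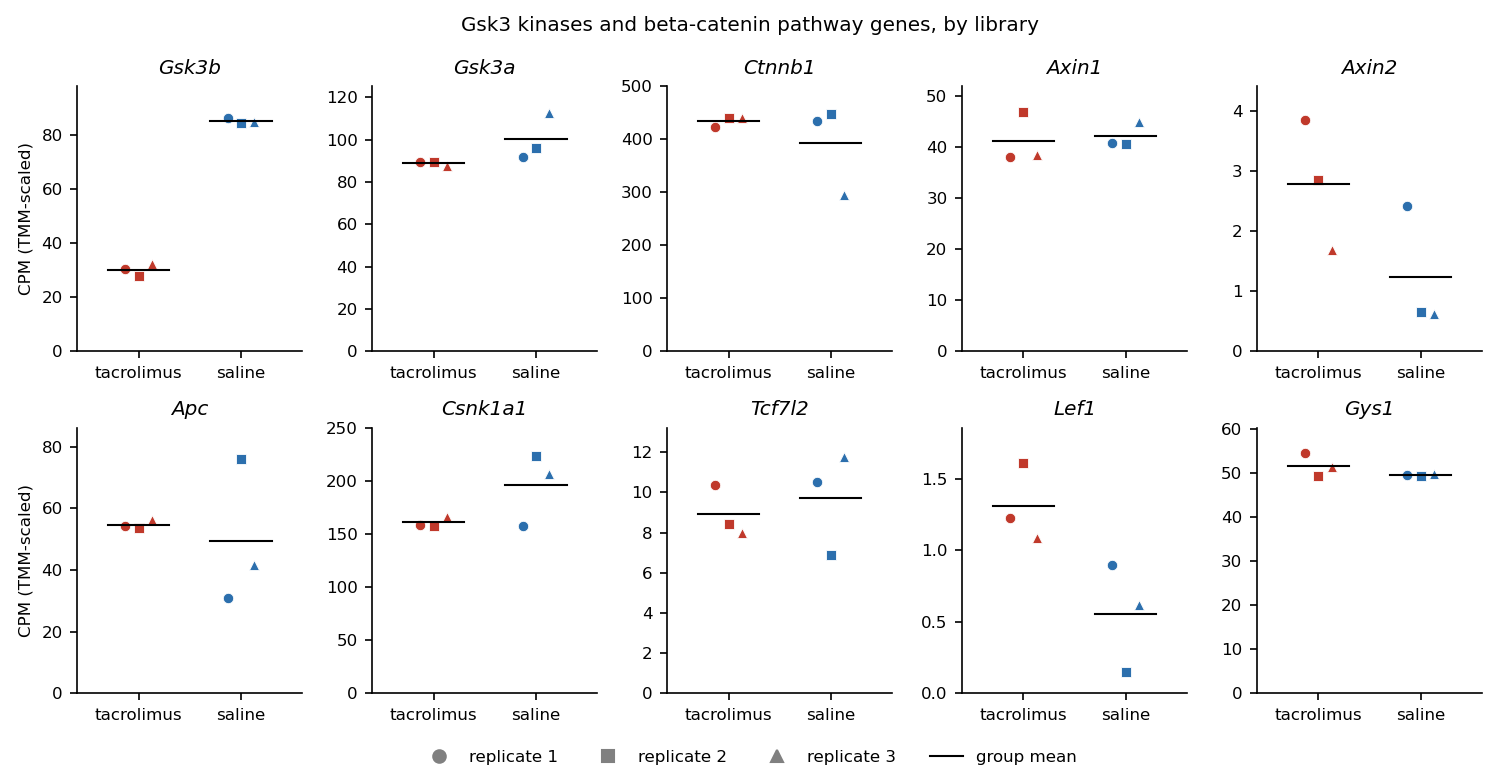
Level of each of the 10 genes, in CPM on linear axes that start at 0, in the 3 tacrolimus libraries (left, red) and the 3 saline libraries (right, blue); shapes mark the replicate and the line the group mean. Gsk3b separates the groups widely, from 27.8 to 32.3 CPM against 84.2 to 86.1 CPM, while most of the other genes overlap or lie close together.

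Gsk3b varied little within its groups, with a pooled SD of 0.08 on the log2 scale, smaller than in all but 4.06% of the genes tested, against a median of 0.30. The size of its log2 fold change was exceeded by 3.21% of the genes tested. Among the 10 genes, Axin2 and Lef1 exceeded it when saline replicate 1 was left out, as given below. Selection of Gsk3b on this same comparison favours a small spread and a large difference, so these shares add no evidence.

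Gsk3a, the paralog that can stand in for Gsk3b in the destruction complex, had 89.5, 89.3 and 87.7 CPM in tacrolimus libraries and 91.8, 96.1 and 112.7 CPM in saline libraries. The groups did not overlap, but saline replicate 1 lay only just above the tacrolimus values. Gsk3a averaged 88.8 ± 0.99 CPM with tacrolimus and 100.2 ± 11.0 CPM with saline (SD, n = 3 each), with a log2 fold change of -0.17 ± 0.12 (SE), and -0.23 without saline replicate 1. Gsk3a was thus not higher where Gsk3b was low.

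On the deposited FPKM scale, Gsk3a was the more abundant of the kinases in every library. Gsk3a had 30.9, 30.8 and 30.4 FPKM in tacrolimus libraries and 31.7, 33.1 and 38.5 FPKM in saline libraries, and Gsk3b 3.09, 2.84 and 3.30 FPKM in tacrolimus libraries and 8.77, 8.54 and 8.52 FPKM in saline libraries. Gsk3b made up 9.11 ± 0.70% of the summed Gsk3 message with tacrolimus and 20.1 ± 1.81% with saline (SD, n = 3 each). Taken as CPM per kb of listed length, the share was 8.47 ± 0.65% with tacrolimus and 18.9 ± 1.72% with saline. The sum of both was 34.0, 33.7 and 33.7 FPKM in tacrolimus libraries and 40.4, 41.6 and 47.02 FPKM in saline libraries. The total Gsk3 message was thus lower with tacrolimus in every library, by a smaller proportion than Gsk3b alone.

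**Figure D2:**
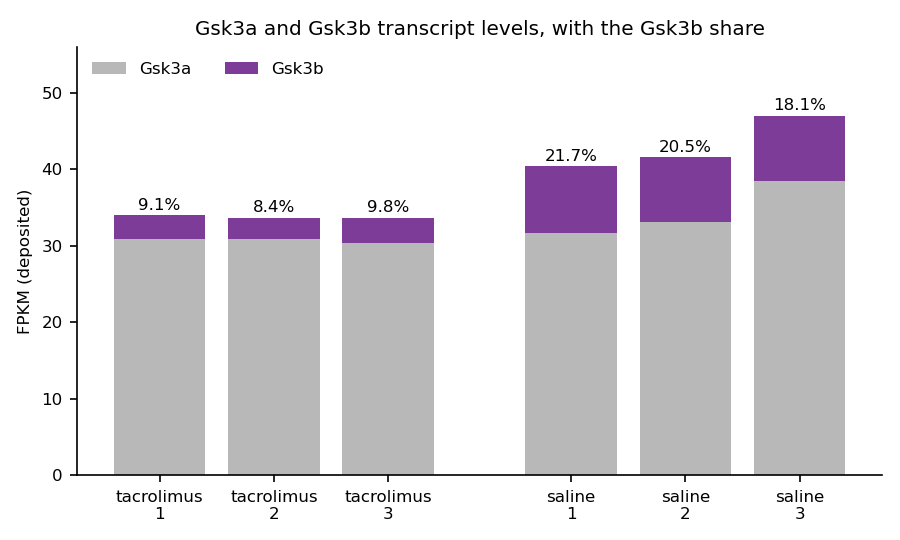
Deposited FPKM of Gsk3a (grey) and Gsk3b (purple), stacked for each of the 3 tacrolimus libraries (left) and the 3 saline libraries (right), with the Gsk3b share of the sum printed above each bar. The share lies between 8.42% and 9.82% in tacrolimus libraries and between 18.1% and 21.7% in saline libraries.

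Ctnnb1 encodes beta-catenin, the substrate whose breakdown Gsk3 promotes. Its message stood at 424, 440 and 440 CPM in tacrolimus libraries and at 434, 447 and 295 CPM in saline libraries. All libraries but saline replicate 3 lay within a narrow range, and the groups overlapped. The log2 fold change was 0.15 ± 0.18 (SE), 0.23 without saline replicate 1, and -0.02 without saline replicate 3, where its sign turned. Any change in beta-catenin protein is outside what these libraries measure.

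For Axin1 and Apc, scaffolds of the destruction complex, the log2 fold change with all libraries was smaller in size than its SE. Axin1, the constitutive scaffold, had 38.1, 46.8 and 38.4 CPM in tacrolimus libraries and 40.8, 40.7 and 44.9 CPM in saline libraries. Its groups overlapped, with a log2 fold change of -0.04 ± 0.13 (SE) whose sign turned without tacrolimus replicate 1, tacrolimus replicate 3 or saline replicate 3 (0.02, 0.00 and 0.01), and which was -0.06 without saline replicate 1. Apc, the large scaffold that binds axin and beta-catenin, had 54.4, 53.7 and 56.3 CPM in tacrolimus libraries and 31.002, 76.0 and 41.6 CPM in saline libraries. The saline libraries enclosed the tacrolimus ones on both sides, and the log2 fold change was 0.15 ± 0.31 (SE), turning to -0.10 without saline replicate 1. It moved most, to 0.59 ± 0.16, without saline replicate 2.

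Axin2 is both a scaffold and a direct target of beta-catenin, and is widely used as a readout of the pathway. It was sparse, with 3.86, 2.85 and 1.68 CPM in tacrolimus libraries and 2.42, 0.661 and 0.621 CPM in saline libraries. Those are 164, 120 and 71 counts with tacrolimus and 100, 26 and 26 counts with saline. Saline replicate 1 fell within the tacrolimus range and the other 2 saline libraries below it. The log2 fold change was 1.18 ± 0.62 (SE) with all libraries and 2.12 ± 0.44 without saline replicate 1. Leaving out any other library gave 0.86 (saline replicate 3) to 1.43 (tacrolimus replicate 3). The size of the difference thus depends on single libraries, most on saline replicate 1. In FPKM, Axin2 stood at 0.0477 ± 0.0205 of Axin1 with tacrolimus and at 0.0207 ± 0.0178 with saline (SD, n = 3 each).

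Csnk1a1 encodes casein kinase 1 alpha, which primes beta-catenin at codon 45 for Gsk3. It had 159, 158 and 167 CPM in tacrolimus libraries and 158, 224 and 207 CPM in saline libraries. Saline replicate 1 coincided with the tacrolimus libraries, and the other 2 saline libraries lay above them. The log2 fold change was -0.28 ± 0.16 (SE) with all libraries and -0.42 ± 0.10 without saline replicate 1.

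Between Tcf7l2 and Lef1, TCF factors that carry beta-catenin to DNA, Tcf7l2 was the more abundant. It had 1.00 ± 0.14 FPKM with tacrolimus and 1.09 ± 0.28 FPKM with saline (SD, n = 3 each). In CPM it had 10.4, 8.42 and 7.96 CPM in tacrolimus libraries and 10.5, 6.86 and 11.8 CPM in saline libraries, and the groups overlapped. The log2 fold change was -0.12 ± 0.24 (SE), -0.06 without saline replicate 1, and 0.04 without saline replicate 3. Lef1, itself a target of beta-catenin in many tissues, was sparse, with 52, 68 and 46 counts in tacrolimus libraries and 37, 6 and 26 counts in saline libraries. These are 1.22, 1.61 and 1.09 CPM with tacrolimus and 0.896, 0.152 and 0.621 CPM with saline. The groups did not overlap, the tacrolimus ones being higher, with a log2 fold change of 1.23 ± 0.60 (SE) and 1.75 ± 0.62 without saline replicate 1. It was 0.78 ± 0.38 without saline replicate 2, the library with 6 counts. Leaving out any other library gave 1.05 (tacrolimus replicate 2) to 1.33 (tacrolimus replicate 3). The size of the Lef1 difference thus depends on single libraries.

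Gys1 encodes the glycogen synthase of muscle and most other tissues, the substrate after which Gsk3 is named. Its message was level across the libraries, with 54.5, 49.3 and 51.4 CPM in tacrolimus libraries and 49.7, 49.3 and 49.8 CPM in saline libraries. The log2 fold change was 0.06 ± 0.10 (SE), and 0.07 without saline replicate 1. Its pooled SD of 0.05 on the log2 scale was smaller than in all but 1.24% of the genes tested. Of 6 striated muscle markers, 5 were at 0 counts in every library, and their summed level was at most 1.41 CPM.

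Over the 10 genes, the groups did not overlap for 3: Gsk3b and Gsk3a were lower with tacrolimus and Lef1 was higher. Groups that do not overlap were found for 21.8% of all genes tested, and the 3 of 10 are near that background. Ordered by mean FPKM, the tacrolimus libraries ran Ctnnb1 (83.9), Gsk3a (30.7), Csnk1a1 (15.4), Gys1 (10.8), Axin1 (10.8), Apc (3.41), Gsk3b (3.08), Tcf7l2 (1.00), Axin2 (0.509) and Lef1 (0.149). In the saline libraries the order was Ctnnb1 (75.3), Gsk3a (34.4), Csnk1a1 (18.6), Axin1 (11.0), Gys1 (10.3), Gsk3b (8.61), Apc (3.06), Tcf7l2 (1.09), Axin2 (0.224) and Lef1 (0.0631). Gys1 and Axin1 had overlapping ranges in the tacrolimus libraries. No other neighbours in either order overlapped. The order depends on the length used: per kb of listed length, Csnk1a1 came second and Gsk3a after it, and Gys1 came before Axin1, in both groups. Gsk3b stood below Apc with tacrolimus and above it with saline.

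The rest of the pathway was followed through 10 lists with 255 genes in the table, of which 235 were tested. edgeR called 0 of the 235 at an adjusted p of 0.05, and 35 had an unadjusted p under 0.05, 14 of them higher with tacrolimus and 21 lower (14.9%, against 12.7% of all genes tested). DESeq2 called 12, 2 higher and 10 lower, against 1.96% of all genes tested. In edgeR without saline replicate 1 the calls were 40 of 236, 21 higher and 19 lower, where 14.0% of all genes tested were called. Groups did not overlap for 52 of the 235, 29 higher and 23 lower, or 22.1% against the 21.8% of all genes. The same shares of all genes tested stand beside the counts of every list below. They are 12.7% by unadjusted p, 1.96% by DESeq2 and 14.0% without saline replicate 1.

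**Figure D3:**
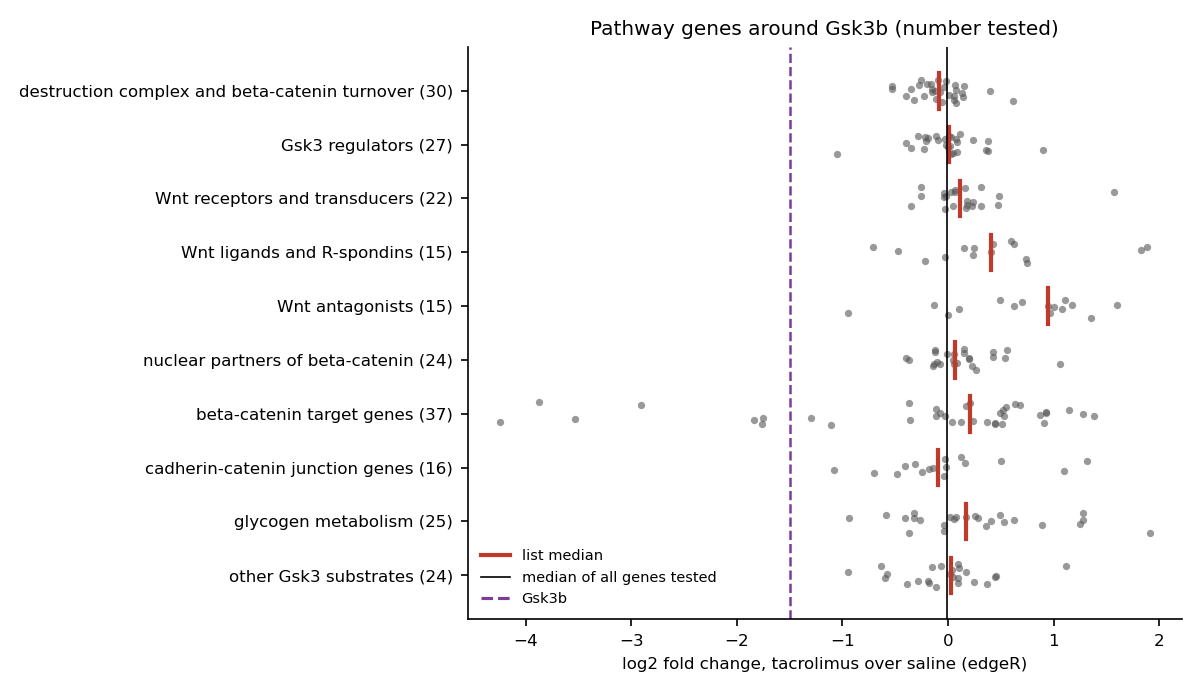
Log2 fold change (edgeR, tacrolimus over saline) of each tested gene in the 10 pathway lists, 1 grey point per gene, with the list median (red), the median of all genes tested (black) and Gsk3b (dashed). List medians lie between -0.09 and 0.95, and most points lie to the right of Gsk3b, at -1.49; the 7 points to its left are all beta-catenin target genes.

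In the destruction complex and beta-catenin turnover list the median log2 fold change was -0.08 over 30 genes and -0.14 without saline replicate 1, against -0.01 over all genes tested with all libraries. edgeR called 0 of the 30, 3 had an unadjusted p under 0.05, all lower, and DESeq2 called 1. Ppp2r5c, a regulatory subunit of the phosphatase PP2A, had 91.0, 80.6 and 91.3 CPM in tacrolimus libraries and 117, 116 and 112 CPM in saline libraries. Those groups did not overlap, saline replicate 1 included (log2 fold change -0.39 ± 0.11 SE; adjusted p = 0.392 in edgeR, 0.0496 in DESeq2). Ppp2cb, a catalytic subunit of PP2A, averaged 60.5 ± 2.63 CPM with tacrolimus and 87.5 ± 24.8 CPM with saline (SD, n = 3 each; edgeR adjusted p = 0.393). After saline replicate 1 was left out, edgeR called Ppp2cb and Csnk1e, a casein kinase 1 isoform, both lower, beside 14.0% of all genes tested. Csnk2a2, a casein kinase 2 subunit, had a log2 fold change of -0.27 ± 0.11 (SE; edgeR adjusted p = 0.393).

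Among 27 regulators of Gsk3, from insulin receptor to Akt and the phosphatase PP1, the median log2 fold change was 0.01, and 0.0016 without saline replicate 1. edgeR called 0, with 0 at an unadjusted p under 0.05, and DESeq2 also called 0. Akt1, a kinase that phosphorylates Gsk3 at the inhibitory serine, had 91.0, 86.8 and 91.3 CPM in tacrolimus libraries and 97.2, 109 and 136 CPM in saline libraries. The groups did not overlap, with the tacrolimus libraries lower (edgeR adjusted p = 0.396). Insr, the insulin receptor, reached 120 CPM in tacrolimus replicate 2 against 51.9 and 45.9 CPM in the other 2 tacrolimus libraries and 23.7 to 48.0 CPM in saline libraries, so that its log2 fold change of 0.90 ± 0.44 (SE; edgeR adjusted p = 0.410) was 0.33 without that library.

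The 22 tested Wnt receptors and transducers had a median log2 fold change of 0.12 and the 15 tested ligands and R-spondins of 0.41. Those medians were 0.14 and 0.64 without saline replicate 1, which left 16 ligands tested. edgeR called 0 in both lists, with 0 at an unadjusted p under 0.05, and DESeq2 called 0. The co-receptor Lrp6 had 227, 208 and 209 CPM in tacrolimus libraries and 214, 174 and 160 CPM in saline libraries, with overlap. Dvl3, a Dishevelled protein that relays the receptor signal, averaged 44.9 ± 3.43 CPM with tacrolimus and 38.1 ± 3.16 CPM with saline (SD, n = 3 each; edgeR adjusted p = 0.413). Ligands were sparse: Wnt9b, the ureteric bud ligand of nephron formation, averaged 4.79 ± 1.75 CPM with tacrolimus and 2.87 ± 1.18 CPM with saline (SD, n = 3 each; edgeR adjusted p = 0.426). Of 25 listed ligands and partners, 10 did not pass the filter on low counts. Lgr6, an R-spondin receptor, and Wnt11 were called by edgeR, both higher, when saline replicate 1 was left out.

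Wnt antagonists had the highest median of the 10 lists, 0.95 and 1.22 without saline replicate 1, and 12 of 15 tested had a positive log2 fold change. edgeR called 0, and 6 had an unadjusted p under 0.05, 5 higher and 1 lower, beside 12.7% of all genes tested. DESeq2 called 0. Dkk3, a secreted Dickkopf family protein made by stressed tubules, had 23.3, 20.8 and 19.9 CPM in tacrolimus libraries and 16.5, 6.71 and 9.96 CPM in saline libraries. The groups did not overlap, with saline replicate 1 nearest to the tacrolimus libraries (log2 fold change 0.95 ± 0.32 SE, and 1.36 without saline replicate 1; edgeR adjusted p = 0.392). Sfrp1, a secreted Frizzled-related protein, had 108, 149 and 97.9 CPM in tacrolimus libraries and 114, 21.8 and 20.8 CPM in saline libraries. Sostdc1, a distal tubule antagonist of Wnt and BMP, had 185, 181 and 166 CPM in tacrolimus libraries and 192, 34.4 and 20.6 CPM in saline libraries. In both genes saline replicate 1 was at the tacrolimus level and the other 2 saline libraries were far below it.

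Without saline replicate 1, edgeR called 7 of the 15 antagonists, where 14.0% of all genes tested were called. Sost, Dkk2, Dkk3, Sfrp1, Sostdc1 and Dact1 were higher with tacrolimus and Sfrp2 was lower. Sost, which encodes sclerostin, was under 1 CPM in every library, at 24, 29 and 26 counts with tacrolimus and 14, 6 and 5 counts with saline. Wif1, a secreted Wnt-binding protein, averaged 1.44 ± 0.30 CPM with tacrolimus and 0.718 ± 0.181 CPM with saline (SD, n = 3 each; edgeR adjusted p = 0.392). Distal nephron markers summed to between 7232 and 9124 CPM in tacrolimus libraries and to 7523, 3145 and 7502 CPM in saline replicates 1 to 3. Only saline replicate 2 lay below the tacrolimus range. Fibroblast and pericyte markers summed to between 422 and 513 CPM in tacrolimus libraries and between 196 and 398 CPM in saline libraries. The part of distal nephron cells, fibroblasts and pericytes in the antagonist values was not tested.

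Nuclear partners of beta-catenin had a median log2 fold change of 0.07 over 24 genes, and 0.13 without saline replicate 1. edgeR called 0, 3 had an unadjusted p under 0.05, 1 higher and 2 lower, and DESeq2 called 0. Yap1, a co-activator that also joins the destruction complex, had 81.0, 83.3 and 79.2 CPM in tacrolimus libraries and 88.4, 113 and 119 CPM in saline libraries (edgeR adjusted p = 0.392). Tcf7l1, the TCF factor known mostly as a repressor, had 10.5, 8.99 and 10.0 CPM in tacrolimus libraries and 7.29, 4.93 and 7.76 CPM in saline libraries (edgeR adjusted p = 0.393). In both genes the groups did not overlap. Pygo2, which binds the Bcl9 adaptors of beta-catenin, averaged 19.0 ± 1.77 CPM with tacrolimus and 24.5 ± 3.23 CPM with saline (SD, n = 3 each; edgeR adjusted p = 0.393). With saline replicate 1 left out, edgeR called Yap1, lower, and Tle5, a member of the Groucho family, higher.

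Target genes of beta-catenin were split in direction. Their median log2 fold change was 0.21 over 37 genes, 22 positive and 15 negative, with single values from -4.24 to 1.39, and the median was 0.41 without saline replicate 1. edgeR called 0, 12 had an unadjusted p under 0.05, 4 higher and 8 lower, beside 12.7% of all genes tested. DESeq2 called 8, 1 higher and 7 lower, beside 1.96% of all genes tested. Ace was higher, and Sox9, Mmp7, Myc, Fosl1, Plaur and Jun were among those lower. Without saline replicate 1, edgeR called 14, 5 higher and 9 lower, beside 14.0% of all genes tested. Ace, Snai2, Vegfa, Ccnd1 and Apcdd1 were higher, and Sox9, Mmp7, Myc, Fosl1, Plaur, Jun, Klf5 and Edn1 were among those lower. Groups did not overlap for 13 of the 37, 7 higher and 6 lower, beside 21.8% of all genes tested.

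Sox9, a transcription factor of regenerating tubules, had 0.517, 0.806 and 2.42 CPM in tacrolimus libraries and 2.95, 18.4 and 33.4 CPM in saline libraries (log2 fold change -3.87 ± 0.98 SE; adjusted p = 0.392 in edgeR, 6.86e-04 in DESeq2). Mmp7, which encodes matrilysin, a protease used as a readout of beta-catenin in kidney disease, had 0.235, 0.142 and 0.355 CPM in tacrolimus libraries and 0.460, 7.01 and 6.57 CPM in saline libraries (log2 fold change -4.24 ± 1.02 SE; adjusted p = 0.392 in edgeR, 5.92e-04 in DESeq2). In both genes saline replicate 1 lay just above the tacrolimus libraries, and the other 2 saline libraries were several times higher. Myc, the growth-promoting transcription factor, had 9.43, 8.21 and 12.4 CPM in tacrolimus libraries and 11.8, 39.4 and 50.2 CPM in saline libraries. Its saline replicate 1 fell within the tacrolimus range. These genes ran beside the tubular injury markers, of which 10 of 14 were called lower by DESeq2 and 13 of 14 had a negative log2 fold change. DESeq2 called 1.96% of all genes tested. Without saline replicate 1 the log2 fold change was -4.37 for Sox9 and -4.78 for Mmp7. The part of tubular injury in the target values was not tested.

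Nkd1 and Apcdd1, targets that act as feedback inhibitors of Wnt, had their higher values with tacrolimus. Nkd1, an intracellular inhibitor of Dishevelled, had 6.30, 5.95 and 3.39 CPM in tacrolimus libraries and 3.37, 2.46 and 2.70 CPM in saline libraries (edgeR adjusted p = 0.392). Apcdd1, a membrane inhibitor of Wnt, had 5.78, 4.41 and 4.66 CPM in tacrolimus libraries and 3.29, 1.42 and 1.41 CPM in saline libraries (edgeR adjusted p = 0.392). Neither pair of groups overlapped, though tacrolimus replicate 3 and saline replicate 1 nearly met for Nkd1. Both were chosen here after their values were seen. Ace, the angiotensin-converting enzyme of the proximal brush border, had 166, 116 and 144 CPM in tacrolimus libraries and 100, 58.7 and 64.2 CPM in saline libraries (log2 fold change 0.93 ± 0.24 SE; adjusted p = 0.392 in edgeR, 0.0332 in DESeq2).

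**Figure D4:**
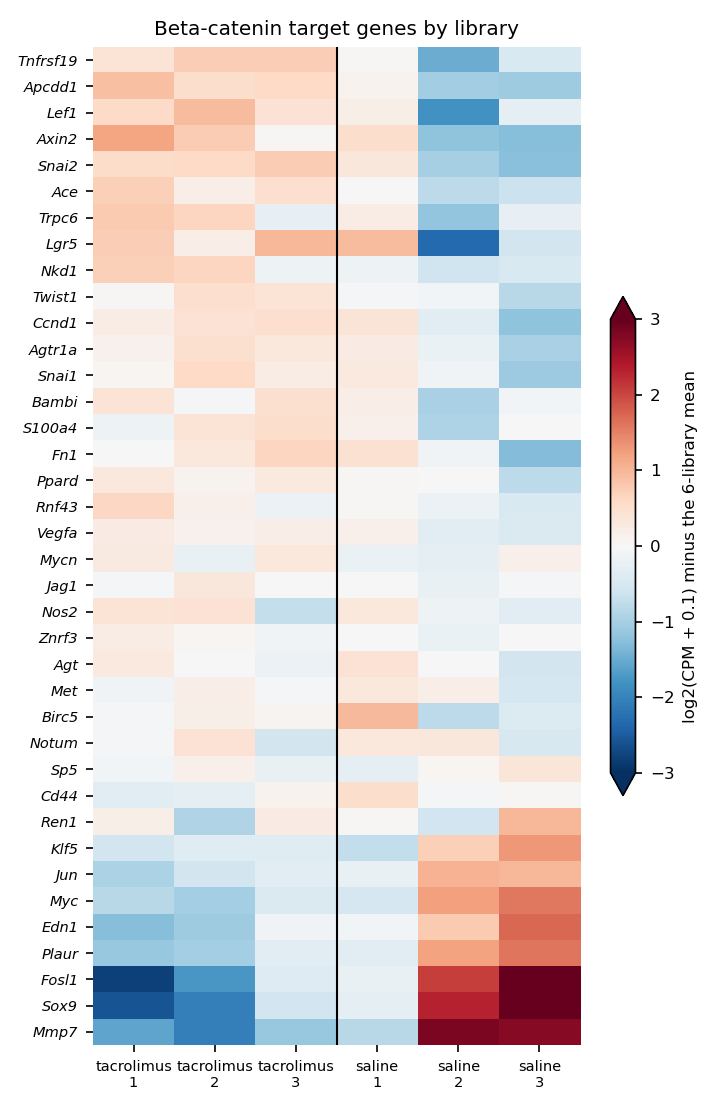
Colour map of 38 beta-catenin target genes, Axin2 and Lef1 included, in the 3 tacrolimus libraries (left of the line) and the 3 saline libraries (right); colour is log2(CPM + 0.1) minus the mean of the 6 libraries, limited to -3 to 3, and genes are ordered by log2 fold change. Genes at the bottom, Mmp7 and Sox9 among them, are high in saline replicates 2 and 3, while saline replicate 1 resembles the tacrolimus libraries.

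Beta-catenin also sits at cell junctions with cadherins, and 16 genes of that pool had a median log2 fold change of -0.09, and -0.05 without saline replicate 1. edgeR called 0, 2 had an unadjusted p under 0.05, both lower, and DESeq2 called 1, Cdh3. Cdh3, which encodes P-cadherin, had 6.98, 8.94 and 8.67 CPM in tacrolimus libraries and 10.3, 19.6 and 22.2 CPM in saline libraries (log2 fold change -1.08 ± 0.30 SE; adjusted p = 0.392 in edgeR, 0.0493 in DESeq2). Vcl, the actin linker vinculin, averaged 91.9 ± 1.00 CPM with tacrolimus and 122 ± 16.2 CPM with saline (SD, n = 3 each; edgeR adjusted p = 0.392). Cdh1, E-cadherin, had 243, 247 and 202 CPM in tacrolimus libraries and 242, 299 and 429 CPM in saline libraries, with overlap (edgeR adjusted p = 0.405). When saline replicate 1 was left out, edgeR called 4 of the 16, with Cdh11 and Ctnna2 higher and Vcl and Cdh3 lower. That fit called 14.0% of all genes tested.

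The glycogen side of Gsk3 was covered by 25 genes beside Gys1, with a median log2 fold change of 0.17, and 0.24 without saline replicate 1. edgeR called 0, 6 had an unadjusted p under 0.05, 3 higher and 3 lower, and DESeq2 called 0. Pygm, the muscle form of glycogen phosphorylase, had 6.37, 5.43 and 5.21 CPM in tacrolimus libraries and 3.95, 1.55 and 1.53 CPM in saline libraries (edgeR adjusted p = 0.392). Gbe1, the branching enzyme, had 77.9, 99.8 and 74.2 CPM in tacrolimus libraries and 111, 156 and 113 CPM in saline libraries (edgeR adjusted p = 0.392). The groups did not overlap in either gene, with Pygm higher and Gbe1 lower. Pgm2, which interconverts sugar phosphates, averaged 19.6 ± 3.41 CPM with tacrolimus and 37.5 ± 12.7 CPM with saline (SD, n = 3 each; edgeR adjusted p = 0.392). Without saline replicate 1, edgeR called Gys2 (the liver glycogen synthase), Pygm, Stbd1 and Ppp1r3c higher and Pgm2 lower, beside 14.0% of all genes tested.

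Other substrates of Gsk3, 24 in number, had a median log2 fold change of 0.03, and -0.0033 without saline replicate 1. edgeR called 0, 3 had an unadjusted p under 0.05, 1 higher and 2 lower, and DESeq2 called 2. Mapt, which encodes tau, a microtubule protein phosphorylated by Gsk3 in the brain, had 117, 128 and 123 CPM in tacrolimus libraries and 42.2, 87.2 and 40.01 CPM in saline libraries (log2 fold change 1.12 ± 0.31 SE; adjusted p = 0.392 in edgeR, 0.0409 in DESeq2). Bcl3, an IκB family protein whose breakdown Gsk3 promotes, had 6.89, 9.42 and 11.2 CPM in tacrolimus libraries and 15.9, 21.2 and 15.9 CPM in saline libraries (log2 fold change -0.94 ± 0.23 SE; adjusted p = 0.392 in edgeR, 0.0251 in DESeq2). In both genes the groups did not overlap, and saline replicate 1 lay with the other saline libraries. Smad3, a transducer of TGF-beta, averaged 44.5 ± 3.22 CPM with tacrolimus and 66.3 ± 17.96 CPM with saline (SD, n = 3 each; edgeR adjusted p = 0.392).

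Gsk3b lies on the plus strand of chromosome 16 at 37909363 to 38066446 (GRCm39), and its neighbours were compared to see whether a wider region differed. Within 500 kb there were 34 other gene models, of which 15 were tested. Their log2 fold changes ran from -0.42 to 0.79, 9 positive and 6 negative. edgeR called 0 of the 15, 2 had an unadjusted p under 0.05, and the groups did not overlap for those 2, Fstl1 and Hgd, both with the higher values in tacrolimus libraries. DESeq2 called 0 of the 15, and edgeR without saline replicate 1 called 3, all higher, beside 14.0% of all genes tested. Groups that do not overlap were found for 21.8% of all genes tested, so 2 of 15 is not above that share. Nr1i2, which encodes the pregnane X receptor, lies 2239 bases beyond the end of Gsk3b on the other strand. It had 6.21, 7.66 and 7.08 CPM in tacrolimus libraries and 7.27, 11.9 and 7.62 CPM in saline libraries, with overlap (log2 fold change -0.35 ± 0.24 SE; edgeR adjusted p = 0.477).

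**Figure D5:**
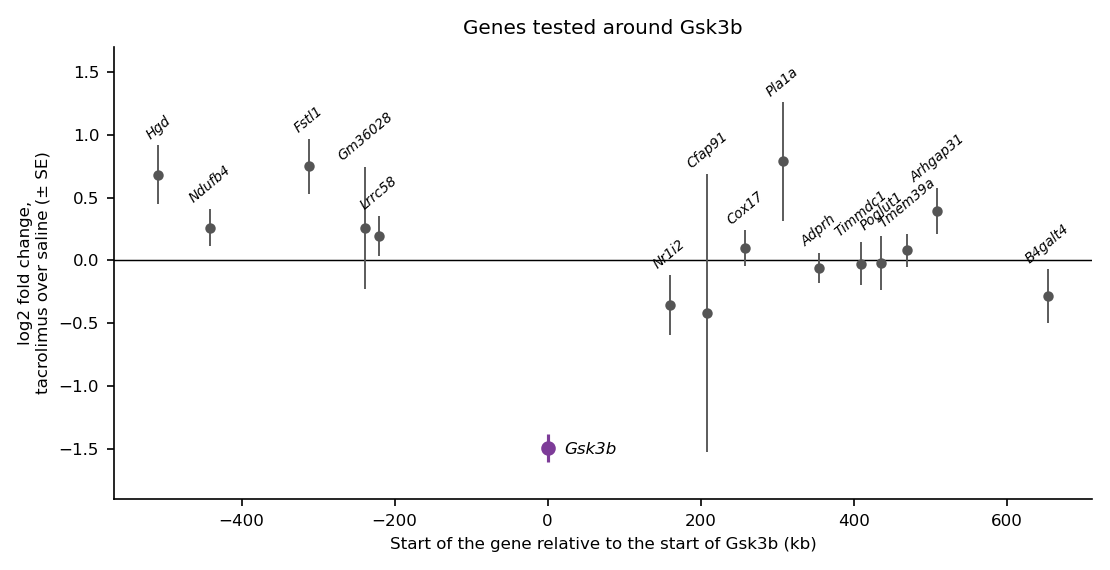
Log2 fold change (edgeR, tacrolimus over saline; bars, SE) of Gsk3b (purple) and the 15 genes tested within 500 kb of it, by the distance in kb between the lowest coordinate of each gene and that of Gsk3b. Gsk3b stands at -1.49, and its neighbours between -0.42 and 0.79.

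Overlapping models and shared sequence bear on how far each count belongs to its gene. The 3 small nucleolar RNA models inside Gsk3b had 0 counts, and only 2 of its 9874 distinct runs of 50 bases (GENCODE M21) occur in another gene, or 0.0203%. For Axin1, Csnk1a1 and Tcf7l2 no such run is shared. The share was 25.7% in Gsk3a, 12.3% in Ctnnb1, 13.7% in Lef1, 5.79% in Gys1, 2.02% in Axin2 and 0.32% in Apc. Gsk3a lies on the minus strand of chromosome 7 at 24927683 to 24937276, Ctnnb1 on the plus strand of chromosome 9 at 120758282 to 120789573, and Gys1 on the plus strand of chromosome 7 at 45084268 to 45106043 (GRCm39). Gsk3a overlaps 9130221H12Rik, an antisense RNA with 1466 counts over the 6 libraries, Ctnnb1 overlaps Ulk4 with 1198, and Gys1 overlaps Ruvbl2 with 5883. The counting is not stated to use strand, so reads of these pairs cannot be told apart where they overlap.

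The genes whose pattern over the 6 libraries was most like that of Gsk3b were found by the root-mean-square difference between log2 CPM values, each centred on its own mean, among 12986 genes with a mean of at least 1 CPM. Nearest was Abcc3, an efflux pump of the multidrug resistance family, at 0.21. It had 4.11, 5.55 and 5.14 CPM in tacrolimus libraries and 13.2, 16.1 and 11.8 CPM in saline libraries. Then came Hivep2 (0.28), AY036118 (0.28), Rbm12 (0.29), Birc3 (0.29), Bora (0.29), Sh2d4b (0.30), Procr (0.30), Brms1 (0.31) and Capn12 (0.32). In each of the 10 the groups did not overlap and tacrolimus was lower, which a likeness to Gsk3b entails. The ranking was not stable: leaving out a library kept between 0 and 6 of these 10. Of the pathway members, Csnk1a1 came nearest, at place 2004, followed by Gsk3a at 2961, and Axin2 was farthest, at 12616. Lef1 was below the level needed for this ranking.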

How the data were processed

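The authors deposited 1 table that holds, for every gene and library, a count of reads and an FPKM level, per the file headers. Counts in the deposited table are unnormalized whole numbers. The FPKM columns the authors deposited are scaled by library size and by a length that differs from the gene length listed beside them. GRCm39 is the build named in the submitters' processing notes. For aligner, counter, annotation release and strand use the sources used here give nothing, and they are not stated. RNA was extracted with TRIzol or a column kit, per the labels' protocols. The table has 56747 gene rows and 1 line is not analysed here.

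Groups and replicate numbers come from the sample titles. The members, the gene lists and the tests were chosen with earlier results of these data known. Counts were fitted with edgeR 4.0.16 in R 4.3.3 (filterByExpr with a minimum count of 10 and total of 15, TMM, glmQLFit with robust moderation, glmQLFTest, two-sided). P-values were adjusted by Benjamini-Hochberg over 17557 genes. Each SE follows from the log2 fold change and its F statistic. A call is an adjusted p under 0.05. The 6 libraries hold 38443534 to 44476844 counts, which leaves counting error small except below about 1 CPM. Replicates were checked for duplicate libraries, and none agreed within sampling noise.

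Named genes are the 10 members, up to 3 genes per pathway list with the smallest unadjusted p, the 10 genes most like Gsk3b with a mean of at least 1 CPM and no predicted-model symbol, and genes tested within 500 kb of Gsk3b. A few genes under these rules are not reported here. Other genes in the text were chosen after their values were seen: those called by an alternative, and Lrp6, Nkd1 and Apcdd1. Alternatives were DESeq2 1.42.0 (Wald test and size factors), upper-quartile factors, no filter, limma 3.58.1 on log2(FPKM + 0.1), a replicate block and leaving out each library. The fits were tested on simulated data. Coding stretches and runs of 50 bases were read from GENCODE M21, a GRCm38 annotation, by longest open reading frame, and no coordinate was taken from it.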

Additional observations from a re-analysis of the deposited data

How the results depend on the processing

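Saline replicate 1 decides most counts of calls. Over all genes, edgeR called 2 with all libraries, DESeq2 344, limma on FPKM 1 and the replicate block 1, and leaving out a library gave 0 to 2534, the highest without saline replicate 1. Of the pathway lists edgeR called 0 and DESeq2 12, and leaving out a library gave 0 to 40, again highest without saline replicate 1. Other normalizations and no filter gave counts within 1.5 times of these. The log2 fold change of Gsk3b, given as a description, lay between -1.55 and -1.44 over the 12 alternatives. The call by which Gsk3b was selected was less stable. Its adjusted p was under 0.05 in 5 of the 12, and reached 0.376 in edgeR without tacrolimus replicate 3. Axin2 had a log2 fold change of 2.12 without saline replicate 1, against 1.18 with all libraries and 0.86 to 1.43 when another library was left out. The labels share replicate numbers 1 to 3 between groups but state no pairing. Correlations of same-numbered deviations were -0.02, -0.01 and -0.05, and those of differently numbered ones ran from -0.13 to 0.14. So few libraries cannot exclude a pairing. Depth limits Lef1, Sost and the Wnt ligand Wnt16, which have few counts in each library. Wnt9b had more, from 68 to 285 counts.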
